A study of Mus musculus with 2 samples.

Results

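The genes described here are 7 genes of the complement system and its collectin relatives, Colec12, C3, Cfb, Serping1, Cd55, Cd59a and Masp1, in the mouse osteosarcoma line MOS-J. They were chosen by their place in the complement pathway and with the differences between these 2 arrays already known, so every difference below is a description and none is tested. All probe sets that carry the symbol of 1 of these genes and no other symbol were taken. This gave 13 probe sets for 6 of the 7 genes, while the probe annotation listed none under C3, which is not analysed here. After the filter on dim signals, 8 of the 13 probe sets and 4 of the 7 genes (Colec12, Masp1, Cfb and Cd59a) counted as measured, of 11058 measured genes in all.

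One array profiled MOS-J cells transfected with human DKK1 and the other MOS-J cells with the control vector. DKK1 is a secreted antagonist of Wnt signalling. The sample labels call both vectors lentiviral, and the protocol text also describes plasmid transfection and later labelling with a fluorescent protein followed by sorting. The sources used here do not say whether the profiled cells were 1 clone or a pool. Each group has 1 array, so no value has a replicate error and no p-value is given.

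Complement is a cascade of blood and tissue proteins that marks surfaces for uptake and lysis. The classical pathway starts with C1q and its proteases C1r and C1s, the lectin pathway with collectins or ficolins and their MASP proteases, and the alternative pathway with C3 and factor B. All of them meet at the cleavage of C3. Host cells hold the cascade in check with the plasma inhibitor C1 inhibitor and with membrane proteins such as CD55, which speeds the decay of the C3-cleaving enzymes, and CD59, which blocks the lytic pore. Most of the circulating proteins come from the liver, and connective tissue cells and macrophages also make several of them.

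Signals are MAS5 intensities in arbitrary units, 1 per probe set. A difference is log2(signal + 16.6) on the DKK1 array minus the same on the control array, averaged per gene over its measured probe sets. A probe set was measured where its mean signal over both arrays reached 71.3. A gene was called higher or lower at a difference of at least 1 (2-fold) with all its measured probe sets on that side. The median difference of all measured genes was 0.10, and probe sets for the same gene differed with a pooled SD of 0.45, which describes agreement within these arrays and not between cultures. The control RNAs added to the samples did not settle the scale. The 18 hybridisation controls had a median log2 ratio of −0.37 and the 20 measured poly-A controls one of 0.64, so directions are also given relative to the median of all genes where the scale turns them. Of the labelled cell type's osteoblast markers, 5 of 8 were measured and none was called. Mean signals on the DKK1 array and the control array were 11425 and 13567 for Col1a2, and 7054 and 3539 for Sparc. They were 3981 and 1895 for Col1a1, 182 and 147 for Alpl, and 117 and 87.0 for Sp7, in the same order. The differences were 0.05 for Col1a2 (probe sets −0.35 to 0.48), 0.79 for Col1a1 (0.05 to 1.54) and 0.94 for Sparc (0.50 to 1.43). Alpl was at 0.27 and Sp7 at 0.36. Bglap and Spp1 are not analysed here. Ibsp was below the filter on both arrays.

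Of the 4 measured genes, 1 was called higher (Colec12) and 0 lower in DKK1 cells, against 11.7% of all measured genes called higher and 6.91% called lower. The contrast was known when the genes were picked, so nothing is read from this count. Among the 8 measured probe sets 4 were at least 2-fold higher, where 12.1% of all measured probe sets with 1 symbol were. These 4 belong to Colec12 and Masp1 alone, and probe sets of 1 gene are not separate units. Colec12 also passed the filter only through the DKK1 array where it is high, so nothing is read from the probe set count either.

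**Figure D1:**
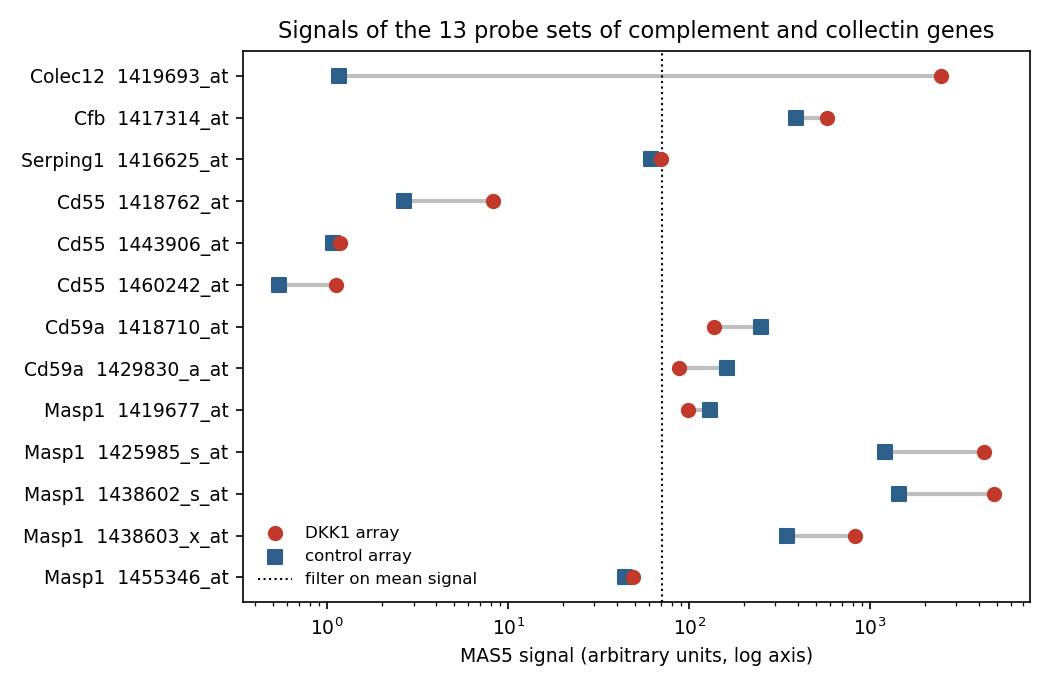
MAS5 signal on a log axis for each of the 13 probe sets, with the DKK1 array as circles, the control array as squares and the filter of 71.3 on the mean signal as a dotted line. Colec12 has the widest gap, with 2469 on the DKK1 array and 1.16 on the control array, while 3 Masp1 probe sets lie apart in the same direction and the Cd59a pair lies apart in the other.

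Colec12 encodes collectin 12, a membrane-bound collectin and scavenger receptor that binds microbial sugars and oxidised lipoprotein. Its single probe set, 1419693_at, had a signal of 2469 on the DKK1 array and 1.16 on the control array. The control signal is far below the filter, so the log2 difference of 7.13 depends on the pseudocount, and with the dim signal raised to the filter the gene was at least 34.6-fold higher in DKK1 cells. This was the highest difference of the 11058 measured genes, though genes that are dim on 1 array have no set order among them. The measured gene nearest to Colec12 in the plane of the 2 log2 levels was Aldh1a1, a retinaldehyde dehydrogenase, at a distance of 0.39 over 2 arrays.

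Other scavenger receptors were set beside it from a list of 18 genes, of which 9 were measured. Of these 9, 2 were called higher and 0 lower, against 11.7% and 6.91% of all measured genes. Their median difference was 0.57, against 0.10 over all measured genes. Scara3, a scavenger receptor of the same class A family, had a signal of 859 on the DKK1 array and 195 on the control array, a difference of 2.05. Scarf2, a relative of the endothelial scavenger receptor SCARF1, had 2003 on the DKK1 array and 548 on the control array in its measured probe set, a difference of 1.84. That call ended without the filter, at −0.13, because its dim probe sets 1438203_at and 1438406_at had negative differences of −0.58 and −1.65. Scara5, a ferritin receptor, was not called at 0.92, with 8152 on the DKK1 array and 4301 on the control array. The macrophage receptor Msr1 had 74.0 on the DKK1 array and 85.4 on the control array, and Marco was below the filter on both arrays. The median of the list turned to −0.03 without the filter and was 0.02 on the scaling by poly-A controls. The medians of all genes there were 0.08 and −0.52, so the list lay below the first and above the second. The genes called higher were 1 without the filter and 4 on hybridisation controls. Of all measured genes, 1729 of 18193 and 2389 of 11057 were called higher there.

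**Figure D2:**
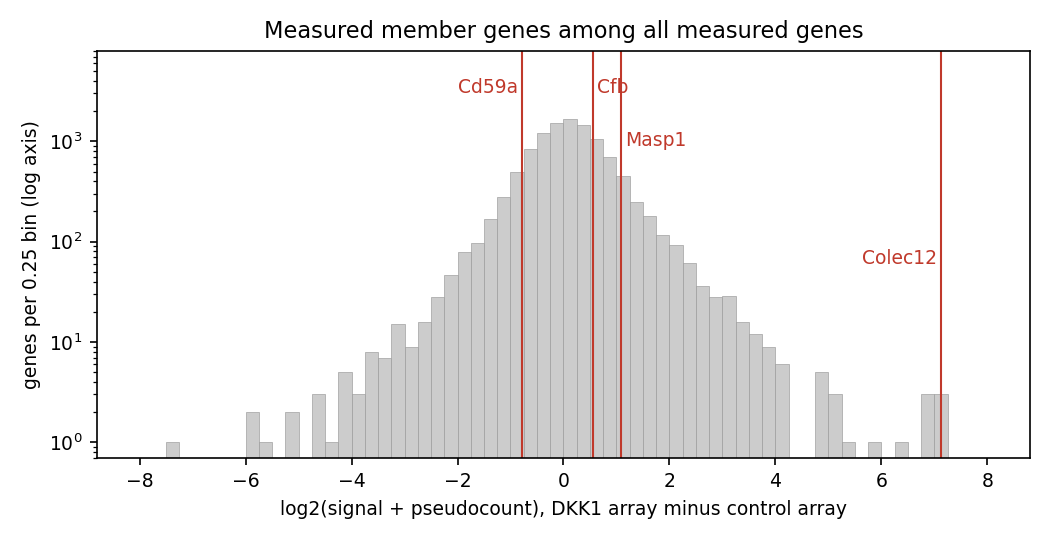
Number of measured genes, on a log axis, per bin of log2 difference between the DKK1 array and the control array, with lines at the 4 measured genes of the group. Colec12 sits at the upper end at 7.13, and Cd59a (−0.78), Cfb (0.55) and Masp1 (1.09) fall within the bulk of the genes.

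Masp1 encodes the serine proteases MASP-1 and MASP-3, made from 1 gene by alternative splicing, which start the lectin pathway and activate factor D. Its 5 probe sets did not go one way. Probe set 1438602_s_at had 4842 on the DKK1 array and 1452 on the control array, a difference of 1.73. Probe set 1425985_s_at had 4238 on the DKK1 array and 1214 on the control array, a difference of 1.79. For 1438603_x_at the signals were 822 and 349.7 in the same order, a difference of 1.19. These 3 probe sets were all more than 2-fold higher in DKK1 cells. Probe set 1419677_at had 98.2 on the DKK1 array and 131 on the control array, a difference of −0.36. The 1455346_at signals were 48.7 on the DKK1 array and 44.4 on the control array, below the filter. The mean over the 4 measured probe sets was 1.09 with an SD of 1.002 between them, and the gene was not called because 1 of them was negative.

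The 3 probe sets with higher signals in DKK1 cells all end in _s_at or _x_at, which in the array maker's naming marks probes that match several transcripts or that may bind unrelated ones. Both 1438602_s_at and 1438603_x_at were designed on the same accession and so are not separate evidence. Without such probe sets only 1419677_at was measured and the difference of Masp1 turned to −0.36, while with the brightest probe set alone it was 1.73 and the gene was called higher. The sources used here do not say which transcripts each probe set reads, and whether they differ in splice form was not tested. The measured gene nearest to Masp1 by its mean levels was Fam126a, at a distance of 0.02.

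Among the other genes of the lectin pathway, 1 of 7 was measured. Fcna, which encodes ficolin A, had a signal of 142 on the DKK1 array and 58.8 on the control array and was called higher at 1.07. With the dim signal raised to the filter its fold was 1.99, and the call ended there and under 6 of the 12 alternatives in all. It was not measured under the stricter filter. Masp2, the protease that cleaves C4 and C2, was below the filter, with signals of 33.3 on the DKK1 array and 74.0 on the control array at 1 probe set and 24.3 and 9.79 in the same order at the other. The soluble collectins Colec10 and Colec11 and the mannose-binding lectins Mbl1 and Mbl2 were also below it.

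Cfb encodes factor B, the serine protease that joins C3b to form the alternative pathway's C3-cleaving enzyme. Its probe set 1417314_at had a signal of 579 on the DKK1 array and 389 on the control array. Both signals were above the filter, and the difference of 0.55 was not called, with 25.4% of measured genes having a higher one. On the scaling by poly-A controls the difference turned to −0.07, while the median of all genes there was −0.52. Relative to that median Cfb lay 0.45 above it as deposited and 0.45 above it on the poly-A scaling. The nearest measured gene was Mme, a membrane metallopeptidase, at a distance of 0.01.

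C2, the classical counterpart of factor B, lies next to Cfb on chromosome 17 in the RefSeq gene order. Its measured probe set 1441912_x_at had 113 on the DKK1 array and 114 on the control array, a difference of −0.01. The probe set 1416051_at, below the filter, had 68.2 on the DKK1 array and 25.7 on the control array. Cfp, properdin, which stabilises the alternative pathway enzyme, was not called at 0.82, with 306 on the DKK1 array and 166 on the control array.

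Serping1 encodes C1 inhibitor, which inactivates C1r, C1s, MASP-1 and MASP-2. Its probe set 1416625_at had a signal of 69.8 on the DKK1 array and 61.7 on the control array. The mean of 65.8 lay just under the filter of 71.3, so the gene was not measured, and its difference without the filter was 0.14.

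Of the genes that encode proteases C1 inhibitor acts on, C1ra and C1s1 were called higher, while Masp1 was not called and Masp2 was below the filter. C1ra, a C1r gene, had a signal of 10225 on the DKK1 array and 2348 on the control array, a difference of 2.11. C1s1, a C1s gene, had 17269 on the DKK1 array and 3985 on the control array, a difference of 2.11 as well. Both stayed above 1 under each alternative that measured them, with the lowest values of 1.48 for C1ra and 1.47 for C1s1 on the scaling by poly-A controls. Mouse carries close copies of both genes, C1rb and C1s2, and the C1s1 probe set ends in _s_at, so part of either signal may come from the copy. The 3 chains of C1q, which the proteases attach to, were below the filter on both arrays. The highest of their signals was 23.9 on the DKK1 array and 16.6 on the control array, both for C1qb.

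The promoter sequences of this pair are shown because the genes lay 4.35-fold and 4.33-fold higher in DKK1 cells. They run 5′ to 3′ on the gene's strand, from 250 bases before the RefSeq start to 50 after it, in build GRCm38.p6, with C1ra at chr6:124512371-124512670 on the plus strand and the first of 2 C1s1 entries at chr6:124542310-124542609 on the minus strand. Capitals mark matches on either strand to 5 motifs searched for.
C1ra: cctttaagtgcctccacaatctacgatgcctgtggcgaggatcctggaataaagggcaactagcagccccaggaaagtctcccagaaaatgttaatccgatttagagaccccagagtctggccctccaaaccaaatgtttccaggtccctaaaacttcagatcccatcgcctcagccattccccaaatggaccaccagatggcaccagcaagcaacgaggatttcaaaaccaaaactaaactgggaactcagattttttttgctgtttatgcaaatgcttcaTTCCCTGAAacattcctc
C1s1: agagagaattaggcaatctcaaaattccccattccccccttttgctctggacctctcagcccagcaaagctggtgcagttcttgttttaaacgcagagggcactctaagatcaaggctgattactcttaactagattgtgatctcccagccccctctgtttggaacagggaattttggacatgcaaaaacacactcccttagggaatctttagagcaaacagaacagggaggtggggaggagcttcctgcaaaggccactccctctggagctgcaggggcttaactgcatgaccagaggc

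The motifs were the interferon-stimulated response element (ISRE, GAAANNGAAA), the STAT site (GAS, TTCNNNGAA), the NF-kB site GGGANTTNCC, the TATA box TATAAA and the GC box GGGCGG. Of 32851 mouse promoters of this length, 3.44% hold the ISRE, 8.30% the GAS, 1.20% the NF-kB site, 13.6% the TATA box and 35.7% the GC box. The C1ra window has 1 GAS match, at base 283, and the C1s1 window has no match to any of the 5. A match is a run of letters and shows no binding.

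Cd55 and Cd59a encode membrane regulators held by a lipid anchor. For Cd55 all 3 probe sets were near the bottom of the scale. They had signals of 8.28, 1.18 and 1.12 on the DKK1 array and of 2.66, 1.08 and 0.54 on the control array, for 1418762_at, 1443906_at and 1460242_at. None reached a mean of 71.3, so no fold is given. A probe set shared with the neighbouring copy Cd55b, and so outside the choice, had 1.15 on the DKK1 array and 4.13 on the control array, and the probe set of Cd55b alone had 1.16 and 0.97 in the same order.

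Cd59a was lower on the DKK1 array at both of its probe sets, without reaching 2-fold. Probe set 1418710_at had a signal of 137 on the DKK1 array and 249.5 on the control array, a difference of −0.79. Probe set 1429830_a_at had 88.5 on the DKK1 array and 162 on the control array, a difference of −0.76. The mean was −0.78 with an SD of 0.02 between the probe sets, and 10.8% of measured genes had a difference as low or lower. The gene was not called as deposited, but it was called lower under 4 of the 12 alternatives, at −1.07 when scaled on the medians, −1.05 with quantile normalization, −1.06 with loess and −1.35 when scaled on poly-A controls. Relative to the median of all genes it lay between −1.03 and −0.68 under every alternative. The neighbouring copy Cd59b is not analysed here, and how far the Cd59a probe sets read it was not tested. The nearest measured gene was Rusc1, at a distance of 0.01.

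The Cd59a promoter window is printed because it belongs to the measured membrane regulator, and it lies at chr2:104095551-104095850 on the plus strand of GRCm38.p6. It holds 1 match to the ISRE, in capitals at base 64, and none to the other 4 motifs. Its 1 CpG dinucleotide compares with a median of 7 over all promoters. No promoter of Colec12, Masp1, Cfb or Serping1 is printed.
Cd59a: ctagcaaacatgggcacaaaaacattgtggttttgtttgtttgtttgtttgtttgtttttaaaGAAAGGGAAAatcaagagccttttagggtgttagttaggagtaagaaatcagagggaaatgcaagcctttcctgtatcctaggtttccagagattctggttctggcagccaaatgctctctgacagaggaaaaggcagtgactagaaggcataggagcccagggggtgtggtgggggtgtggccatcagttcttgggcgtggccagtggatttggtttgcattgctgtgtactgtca

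The further regulators of the list had differences of both signs. Cr1l, the mouse inhibitor of C3 cleavage known as Crry, was not called at −0.61. Its probe set 1422563_at had 1766 on the DKK1 array and 3504 on the control array, and 1430131_at had 143 and 171 in the same order. It was called lower on the scaling by poly-A controls, at −1.04. Clu, clusterin, which binds the lytic complex, was not called at 0.98, with 4 probe sets between 0.53 and 1.28. It was called higher under 4 of the 12 alternatives, at 1.35 when scaled on hybridisation controls and just past 1 with no pseudocount, with dim signals raised to the filter and without the _x_at and _s_at probe sets. Cd46, a cofactor for cleavage of C3b, was not called at 0.22, and Cfi, the protease factor I, at 0.26. Cfhr2 was called higher at 2.20, with 177 on the DKK1 array and 25.6 on the control array, or at least 2.48-fold. Its second probe set, below the filter, had 26.1 on the DKK1 array and 13.9 on the control array. C4b is not analysed here.

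Over the whole list of 55 further complement genes, 45 had a probe set with their symbol alone and 15 were measured. Of these 15, 5 were called higher (C1ra, C1s1, Fcna, C8g and Cfhr2) and 1 was called lower (C1qbp), against 11.7% of all measured genes called higher and 6.91% called lower. The list's median difference was 0.26, against 0.10 over all measured genes. For 3 of the 5 (Fcna, C8g and Cfhr2) the control signal was under the filter, so they were measured only through the DKK1 array where they are high, and their calls support nothing about the list. The genes called higher were 2 (C1ra and C1s1) under the stricter filter, where both signals had to pass, and 3 with the larger pseudocount or on poly-A controls. They were 7 without the filter and 7 on hybridisation controls. Of all measured genes, 941 of 10326, 931 of 11058, 472 of 11046, 1729 of 18193 and 2389 of 11057 were called higher under those settings, in that order. List genes called lower were 2 without the filter, 0 on hybridisation controls and 5 on poly-A controls. Of all measured genes, 1025 of 18193, 381 of 11057 and 2663 of 11046 were called lower there. C8g, a chain of the lytic complex, had 144 on the DKK1 array and 42.5 on the control array, a difference of 1.44 and at least 2.02-fold. That call ended with the larger pseudocount, at 0.95, and when scaled on poly-A controls, at 0.92. Hc, which encodes C5, and 4 other genes of the lytic complex were below the filter. C1qbp, a mitochondrial protein also known as the receptor for C1q heads, was called lower at −1.28 with an SD of 0.21 between 2 probe sets. Its probe set 1448274_at had 4261 on the DKK1 array and 11536 on the control array, and 1455821_x_at had 12163 and 26762 in the same order. That call ended on the scaling by hybridisation controls, at −0.91. The median of the list turned to −0.02 when scaled on the medians, −0.03 with quantile normalization, −0.12 with loess and −0.27 on poly-A controls, against all-gene medians of −0.22, −0.05, −0.02 and −0.52.

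**Figure D3:**
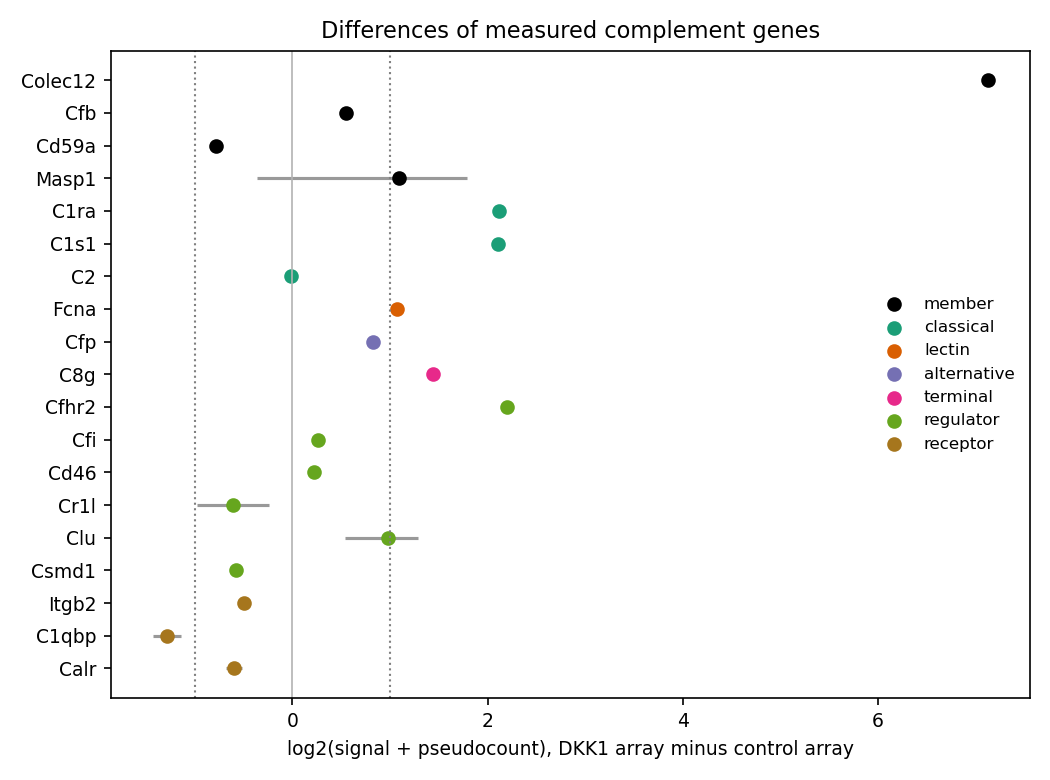
Log2 difference between the DKK1 array and the control array of the 4 measured genes of the group (black) and the 15 other measured complement genes, coloured by role, with bars from the lowest to the highest measured probe set and dotted lines at 2-fold. C1ra and C1s1 stand at 2.11 each, C1qbp at −1.28, and the Masp1 bar reaches from −0.36 to 1.79.

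Of the markers of other cell types that make complement, those of liver and endothelium were mostly below the filter. Of 12 macrophage and leukocyte markers 7 were measured, with summed signals of 1326 on the DKK1 array and 1083 on the control array, where each gene counts with the mean of its measured probe sets or else its brightest. Lyz2 was called higher at 2.29 and Laptm5 lower at −1.10, both with 1 measured probe set, and both calls ended with dim signals raised to the filter, at 0.93 and −0.67. Below the filter, Ptprc had 5.89 on the DKK1 array and 11.7 on the control array, and Adgre1 had 53.1 and 49.6 in the same order. Also below it, Fcer1g had 74.4 and 35.8 and Tyrobp 59.8 and 32.2, higher on the DKK1 array, and Fcgr1 25.4 and 40.1. Cd14 had 521 and 370, Csf1r 164 and 117, and Cd68 127 and 86.4, in that order, none of them called. Cd53 had 45.8 and 108 and Itgb2 69.1 and 104, lower on the DKK1 array and not called. Of 8 liver markers 1 was measured, haptoglobin (Hp), which was called lower at −2.06 with 1631 on the DKK1 array and 6838 on the control array. Albumin (Alb) had 56.6 on the DKK1 array and 25.4 on the control array. The summed liver signal was 1811 on the DKK1 array and 6939 on the control array, most of it from Hp alone. The other liver markers with a probe set were below the filter, so the sum says little beyond Hp. Of 7 endothelial markers 2 were measured, with sums of 396 and 250 in the same order. Cd34 had 197 on the DKK1 array and 33.5 on the control array, which is under the filter, and was called higher at 2.10, or at least 2.77-fold with the dim signal raised. It was not measured under the stricter filter. Pecam1 had 37.7 on the DKK1 array and 37.5 on the control array. The further markers Cdh5, Tek, Emcn and Vwf were below the filter and lower on the DKK1 array. The part of such cells in the complement signals was not tested, and in bulk RNA fewer cells of a type and less RNA per cell cannot be told apart.

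**Figure D4:**
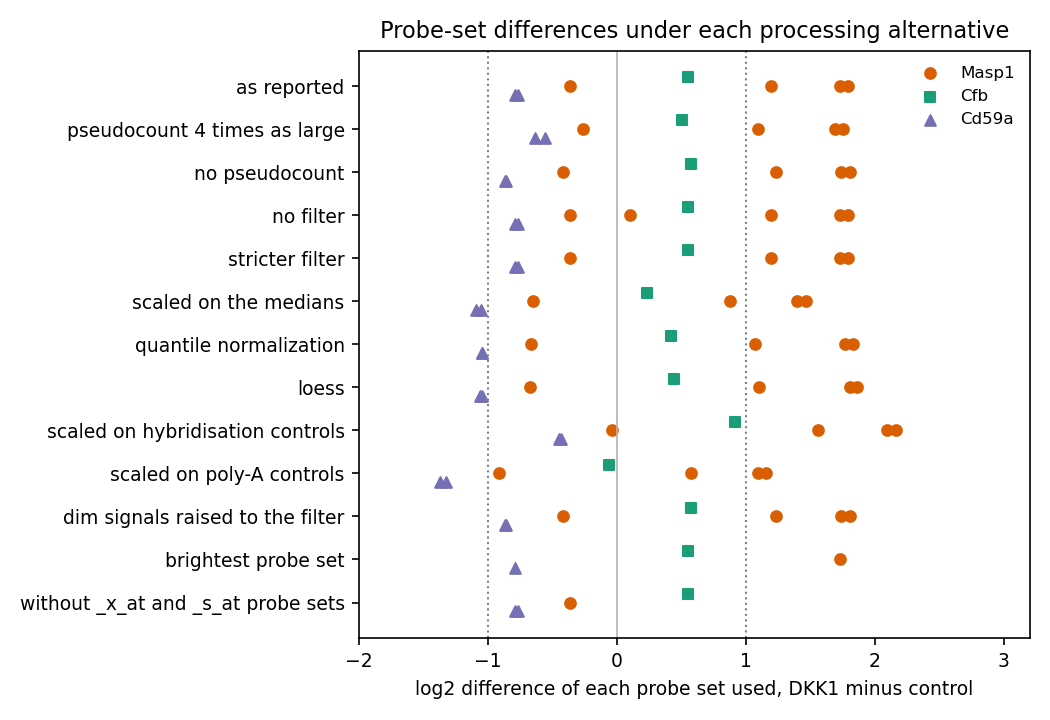
Log2 difference of each measured probe set of Masp1 (circles), Cfb (squares) and Cd59a (triangles) between the DKK1 array and the control array, as reported and under each of the 12 alternatives, with dotted lines at 2-fold. The Masp1 probe sets lie in 2 groups wherever both kinds were used, Cd59a stays below 0 and passes −1 under 4 scalings, and Cfb crosses 0 on the poly-A scaling.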

How the data were processed

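Total RNA of MOS-J cells was turned into biotinylated cRNA from its 3' ends and hybridised to 1 Affymetrix mouse array per group, per the labels' protocols. The values are intensity values, deposited as 1 linear signal for each of 45101 probe sets and made with MAS5, per the submitters' processing notes; the sources used here do not give its settings. Both arrays had a trimmed mean of 500.0 (2% left out at each end), so each was scaled on its own, and no detection calls were used.

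Symbols came from the platform annotation, checked by gene ID against RefSeq (GRCm38.p6). Without the 64 control probe sets, 34945 probe sets carry 1 symbol, 932 several and 9160 none listed here. The array's build is not given, so coordinates are printed for promoter sequences alone. The pseudocount was the 25th percentile of all signals (16.6) and the filter the median of the mean signals (71.3), with Python 3.11.15, numpy 2.4.6, pandas 2.3.3 and statsmodels 0.14.6. The calling rule was tested on simulated data, with changes well beyond 2-fold planted in bright genes alone. The simulated probe sets of a gene also differed less than those on these arrays. It therefore does not cover dim genes, small differences or probe sets that disagree. With 1 array per group no test between the groups was run, the number of arrays limits the precision, and group cannot be told apart from batch.

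The genes, lists and alternatives were chosen with earlier results of these data known. Named were the 7 genes, called genes of the lists, 13 complement genes set in any case, and for each measured gene its nearest in the 2 log2 levels. Values of marker genes and of uncalled list genes were added after they were seen. The alternatives changed the pseudocount, the filter, the scaling and the choice of probe sets.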

Additional observations from a re-analysis of the deposited data

How the results depend on the processing

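Colec12 was called higher under 11 alternatives, at 5.11 to 11.1, and was not measured under the stricter filter, where both signals had to pass, so that 0 of the genes were called higher there. With the brightest probe set, 2 were called higher, as Masp1 was at 1.73, and without _x_at and _s_at probe sets Masp1 was at −0.36. Cfb was −0.066 on poly-A scaling. Cd59a was the 1 gene called lower when scaled on the medians (−1.07), with quantile normalization (−1.05), with loess (−1.06) and on poly-A controls (−1.35). The complement list median was −0.0158, −0.0335, −0.12 and −0.27 under those 4. Its genes called higher were 3 with the larger pseudocount, 2 with the stricter filter and 3 on poly-A controls. They were 7 without the filter and 7 on hybridisation controls. Its genes called lower were 2 without the filter, 0 on hybridisation controls and 5 on poly-A controls. The scavenger receptor median was −0.0269 without the filter and 0.0188 on poly-A controls, against all-gene medians of 0.0821 and −0.518. Scavenger receptor genes called higher were 1 without the filter and 4 on hybridisation controls. Of all measured genes, 746 were called higher and 1432 lower when scaled on the medians, 2389 and 381 on hybridisation controls, and 472 and 2663 on poly-A controls. Without the filter 1729 were called higher and 1025 lower, of 18193 genes. Higher genes made up 62.9% of calls as deposited, 34.3% when scaled on the medians, 49.8% with quantile normalization, 51.8% with loess, 86.2% on hybridisation controls and 15.1% on poly-A controls. The cause of these changes beyond the shift in scale was not tested. No replicate could be left out with 1 array per group, and signals near or under 71.3 limit what can be read for Cd55 and Serping1.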

Other observations

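The genes next to the 7 in the RefSeq gene order were looked up after the values had been seen, with 2 protein-coding genes on either side of each. Of these 28 neighbours 17 were measured, and 3 were called higher and 1 lower, against 11.7% of all measured genes called higher and 6.91% called lower. The genes around Colec12 on chromosome 18 did not share its difference. Ccny was at 0.28, Cetn1 at 0.29, Thoc1 at −0.24 and Usp14 at −0.25, none of them called. Beside Masp1 on chromosome 16, Rtp4, a chaperone for receptors that interferon induces, was called higher at 1.96 with a signal of 6483 on the DKK1 array and 1940 on the control array. On the other side St6gal1, a sialyltransferase, was called lower at −1.83 with 193 on the DKK1 array and 731 on the control array. Beside Serping1 on chromosome 2, Ube2l6, the conjugating enzyme for the ubiquitin-like protein ISG15, was called higher at 1.33 with 344 on the DKK1 array and 127 on the control array. Ypel4 was called higher at 1.69 with 210 on the DKK1 array and 53.3 on the control array. Its control signal is under the filter, and with that signal raised the gene was at least 2.94-fold higher.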
